A study of Mus with 12 samples.

Results

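Blood levels of 8 genes of leukocyte adhesion were examined in a mouse model of atopic dermatitis. They were Itgam, Itgb2, Itgal and Itgax, which encode the beta-2 integrins of white cells, Itga4 and Itgb7, which encode an alpha and a beta chain of lymphocyte homing integrins, and Selplg and Cd44, which encode ligands of selectins and of hyaluronan. The genes were taken by symbol, each symbol matched 1 gene, and together they were 8 of the 25247 genes in the table.

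RNA of whole blood, collected on day 30, was sequenced in 12 BALB/c mice, all female and 6 weeks old when purchased, with 3 mice in each of 4 groups. The Solvent mice had vehicle alone, a mixture of acetone and olive oil, on shaved dorsal skin. The DNCB mice were sensitised with 1% DNCB (2,4-dinitrochlorobenzene, a contact sensitiser) and then challenged repeatedly with 0.5% DNCB. Both treated groups had the same DNCB course and also human umbilical cord mesenchymal stem cells (MSCs), with 2000000 cells for each mouse at a dose. The scMSC mice had 100 µL of cells under the skin, whereas the scivMSC mice had 50 µL under the skin and 50 µL into the tail vein. An injection without cells is not described for the Solvent or DNCB mice, so the effect of the cells and that of the injection cannot be told apart. The MSCs are of another species than the host, and whether human reads entered the mouse gene counts was not tested.

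Leukocytes leave blood vessels in steps. Selectins on endothelium and platelets catch sialylated sugar chains on ligands such as PSGL-1, the Selplg product, and the cell rolls. Signals from chemokine receptors then switch integrins to a high-affinity form through talin and kindlin, and the integrins hold the cell on ICAM and VCAM or MAdCAM proteins before it crosses the vessel wall. Beta-2 integrins are carried by all leukocytes, with Mac-1 (Itgam with Itgb2) prominent on neutrophils and monocytes, LFA-1 (Itgal with Itgb2) on lymphocytes and myeloid cells, and CD11c (Itgax) on dendritic cells and some monocytes. The pair of Itga4 and Itgb7 directs lymphocytes to the gut.

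Library totals ran from 52.2e6 to 65.1e6 estimated counts, which corresponds to between 13.0e6 and 16.3e6 fragments if a fragment is worth 4 counts. Haemoglobin genes took between 78.4% and 89.0% of the counts, and scivMSC replicate 2 had the fewest counts outside haemoglobin, 5.84e6. Levels are given as FPKM, a count of fragments divided by gene length in kilobases and by the library total in units of 1e6. A gene was called higher or lower when its edgeR quasi-likelihood adjusted p was under 0.05 and the difference was more than 2-fold, with counts scaled to the library total. A second scaling, TMM, sets the bulk of genes level between libraries. It moved the median log2 difference of all 5527 tested genes by -0.14 between DNCB and Solvent. For the treated groups against DNCB the shift was 0.69 (scMSC) and 1.57 (scivMSC), for those against Solvent it was 0.55 (scMSC) and 1.42 (scivMSC), and for scivMSC against scMSC it was 0.86. In whole blood, fewer cells of a type and less RNA per cell cannot be told apart. All comparisons with DNCB share the same 3 DNCB libraries, and all those with Solvent share the same 3 Solvent libraries.

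The 3 DNCB libraries stood above all other libraries for Itgb2, Itgam, Itgal, Itgax, Selplg and Cd44. The share of all tested genes that separate in this way was not computed. This separation therefore says little about the 8 genes in particular. Itgax was tested only because its DNCB libraries reached 1 FPKM. Itgb7 was highest in Solvent, and Itga4 overlapped between Solvent and DNCB. The scivMSC libraries were the lowest group for each of the 8 genes by mean FPKM. Over all tested genes the median log2 difference of scivMSC was -1.53 against DNCB, -0.87 against scMSC and -1.47 against Solvent. The share of all tested genes lowest in scivMSC was not computed, so this place says little about the 8 genes. With TMM, Itgb2, Itgal, Selplg and Cd44 were not lower in scivMSC than in Solvent, and Itgb7 was not lower than in DNCB. Over the 4 groups, 8 of 8 genes differed by the edgeR quasi-likelihood F test with adjusted p under 0.05, beside 72.3% of all tested genes, so this count says little about the 8 genes in particular.

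**Figure D1:**
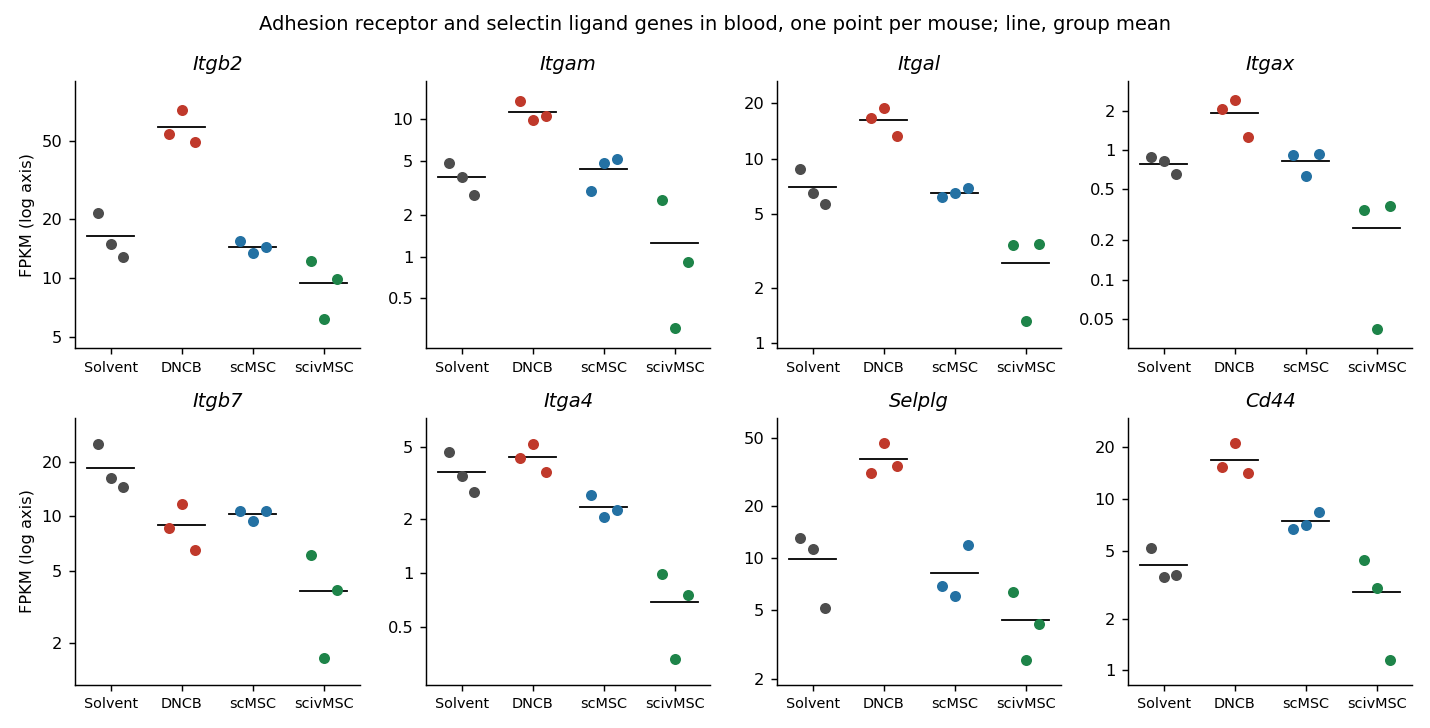
FPKM of the 8 genes in each of the 12 blood libraries, on a log axis, by group. Each point is 1 mouse and each line a group mean. The DNCB points lie above all others for 6 genes, whereas Itgb7 was highest in Solvent and Itga4 overlapped between Solvent and DNCB. The share of all tested genes with such a separation was not computed.

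Itgb2 encodes CD18, the beta chain shared by the beta-2 integrins, and lies on chromosome 10 (77530252 to 77565686, plus strand). Its FPKM was 21.4, 15.0 and 12.8 in Solvent, 54.3, 72.3 and 49.7 in DNCB, 15.5, 13.5 and 14.4 in scMSC, and 12.3, 6.17 and 9.88 in scivMSC. No DNCB library overlapped any other group, and the scMSC values lay within the Solvent range. The mean rose from 16.4 ± 4.47 in Solvent to 58.8 ± 12.0 in DNCB (SD, n = 3 each), a difference of 1.84 on the log2 scale (SE 0.30, adjusted p = 0.000342). Itgb2 fell by 2.03 on the log2 scale in scMSC against DNCB (SE 0.30, adjusted p = 0.000234) and by 2.64 in scivMSC against DNCB (SE 0.31, adjusted p = 6.8e-06). These 3 calls held with TMM, at 1.70, -1.33 and -1.04. The difference between scivMSC and scMSC was -0.60 (SE 0.29, adjusted p = 0.113) and became 0.29 with TMM, so its direction depended on the scaling.

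Itgal encodes CD11a, the alpha chain of LFA-1, on chromosome 7 (127296260 to 127335138, plus strand). The Solvent libraries held 8.83, 6.54 and 5.66 FPKM, the DNCB libraries 16.7, 18.8 and 13.3, the scMSC libraries 6.20, 6.52 and 6.91, and the scivMSC libraries 3.42, 1.32 and 3.44. DNCB and scivMSC each stood apart from the other groups, on opposite sides. On the log2 scale Itgal rose by 1.22 in DNCB (SE 0.33, adjusted p = 0.0145), but the call was lost without Solvent replicate 2 (adjusted p = 0.0623), Solvent replicate 3 (adjusted p = 0.07) or DNCB replicate 2 (adjusted p = 0.0565). It fell by 1.33 in scMSC against DNCB (SE 0.33, adjusted p = 0.00745), a fall of under 2-fold with TMM (-0.62, adjusted p = 0.0402). In scivMSC against DNCB it fell by 2.58 (SE 0.35, adjusted p = 1.69e-05), and by 1.02 with TMM.

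Itgam encodes CD11b, the alpha chain of Mac-1 (complement receptor 3), and lies on chromosome 7 (128062640 to 128118491, plus strand). Its FPKM was 4.79, 3.83 and 2.83 in Solvent, 13.6, 9.86 and 10.6 in DNCB, 3.01, 4.81 and 5.19 in scMSC, and 2.58, 0.302 and 0.921 in scivMSC. DNCB was the highest and scivMSC the lowest group with no overlap, while Solvent and scMSC overlapped. Itgam was 1.57 higher on the log2 scale in DNCB than in Solvent (SE 0.52, adjusted p = 0.0389). That call was lost without any single Solvent or DNCB library and also without scMSC replicate 2, with adjusted p between 0.0528 and 0.14 over these 7 fits.

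The reads of Itgam could not be assigned to it alone. A predicted protein-coding gene, Gm49368 (chromosome 7, 128062683 to 128128160, plus strand), covers 99.9% of the Itgam span on the same strand and ends 1386 bases before Itgax begins. Gm49368 was looked at after its values were seen. Per 1e6 estimated counts of the library, the 2 genes together held 29.8, 26.1 and 17.2 in Solvent, 151, 165 and 143 in DNCB, 23.2, 29.2 and 32.4 in scMSC, and 15.4, 4.18 and 11.5 in scivMSC. The share of these counts that the deposited table gave to Gm49368 was 15.9% ± 5.36 in Solvent, 60.1% ± 8.07 in DNCB, 19.6% ± 10.0 in scMSC and 42.9% ± 28.6 in scivMSC (SD, n = 3 each). The share was higher in all 3 DNCB libraries than in any Solvent or scMSC library, whereas the scivMSC libraries spread over both. Values of Itgam alone therefore left out more of the counts of this locus in DNCB than in Solvent or scMSC, and the true division is uncertain.

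With the counts of Gm49368 added to Itgam, the rise in DNCB against Solvent was 2.65 (SE 0.39, adjusted p = 0.000136). The sum fell by 2.44 in scMSC against DNCB (SE 0.38, adjusted p = 0.000374), where Itgam alone gave -1.40 (SE 0.52, adjusted p = 0.0526) and was called only without scivMSC replicate 1 (adjusted p = 0.00585) or replicate 2 (adjusted p = 0.00272) among the fits without 1 library. Itgam alone was also called by edgeR with only the 6 libraries of this comparison (adjusted p = 2.91e-05) or with no filter on low values (adjusted p = 0.0458). Limma called it on log2(FPKM + 1) (adjusted p = 0.00534) and on log2(FPKM + 0.1) (adjusted p = 0.048). With TMM it was not called (-0.71, adjusted p = 0.184). In scivMSC against DNCB the sum fell by 3.88 (SE 0.41, adjusted p = 4.36e-06) and Itgam alone fell by 3.16 (SE 0.55, adjusted p = 0.00014). With TMM the sum gave 2.51, -1.73 and -2.40 in the same 3 comparisons, each of them called.

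**Figure D2:**
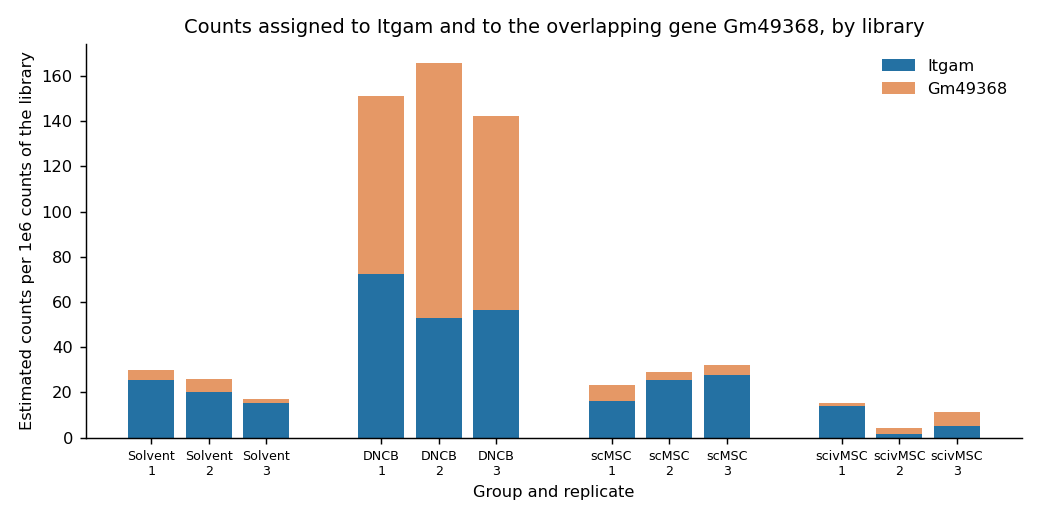
Estimated counts, per 1e6 counts of the library, assigned to Itgam (lower part of each bar) and to the overlapping gene Gm49368 (upper part) in each of the 12 libraries. The sums were 151, 165 and 143 in DNCB and at most 32.4 elsewhere, and Gm49368 took 60.1% of the sum on average in DNCB against 15.9% in Solvent.

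Itgax encodes CD11c and is the next of these genes on the chromosome, 11.1 kb beyond Itgam (128129547 to 128150657, plus strand). Its FPKM was 0.877, 0.818 and 0.651 in Solvent, 2.07, 2.41 and 1.24 in DNCB, 0.902, 0.622 and 0.928 in scMSC, and 0.343, 0.0415 and 0.366 in scivMSC. It reached the filter of 1 FPKM in 3 libraries only through its DNCB libraries, so its place among the tested genes rests on the group in which it was high. The value of scivMSC replicate 2 came from 12 counts, which is the floor of 3 fragments. DNCB lay 1.28 above Solvent on the log2 scale (SE 0.54, adjusted p = 0.108), which was not called. The call was gained with TMM (1.09, adjusted p = 0.0397) and without scivMSC replicate 2 (adjusted p = 0.00946). In scivMSC against DNCB it fell by 2.91 (SE 0.58, adjusted p = 0.000421), and by 1.40 with TMM.

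Itga4 encodes the alpha chain that pairs with beta 1 as VLA-4 or with the Itgb7 product. It lies on chromosome 2 (79255426 to 79333123, plus strand). The libraries held 4.68, 3.44 and 2.80 FPKM in Solvent, 4.34, 5.21 and 3.63 in DNCB, 2.70, 2.03 and 2.23 in scMSC, and 0.977, 0.332 and 0.752 in scivMSC. Solvent and DNCB overlapped, and the scivMSC libraries were below all others. The difference between DNCB and Solvent was 0.27 (SE 0.35, adjusted p = 0.642). Between scMSC and DNCB it was -0.93 (SE 0.35, adjusted p = 0.0565) and was not called. Itga4 fell by 2.68 in scivMSC against DNCB (SE 0.37, adjusted p = 1.98e-05) and by 2.41 in scivMSC against Solvent (SE 0.37, adjusted p = 0.000165). Both falls were also called with TMM, at -1.14 and -1.02.

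Itgb7 encodes the beta chain that pairs with the Itga4 product on gut-homing lymphocytes and with alpha E on epithelial T cells. It lies on chromosome 15 (102215995 to 102231944, minus strand). Its FPKM was 24.9, 16.3 and 14.4 in Solvent, 8.61, 11.7 and 6.51 in DNCB, 10.7, 9.36 and 10.7 in scMSC, and 6.10, 1.65 and 3.93 in scivMSC. All DNCB values were below all Solvent values, and Itgb7 was the 1 gene of the 8 whose mean was lower in DNCB than in Solvent. The log2 difference was -1.05 (SE 0.40, adjusted p = 0.0696) with total-count scaling, just short of a call. With TMM it fell by 1.21 (adjusted p = 0.000349), and it was also called without scivMSC replicate 1 (adjusted p = 0.0258) or replicate 2 (adjusted p = 0.0103). In scMSC against DNCB the difference was 0.19 (SE 0.39, adjusted p = 0.736), and 0.91 with TMM (adjusted p = 0.0036), under 2-fold. It fell by 1.20 in scivMSC against DNCB (SE 0.40, adjusted p = 0.0141), but the direction turned with TMM (0.31, adjusted p = 0.196), and the call was lost without DNCB replicate 2 (adjusted p = 0.0664) or scivMSC replicate 2 (-0.83).

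Selplg encodes PSGL-1, the main ligand of P-selectin on leukocytes, and lies on chromosome 5 (113818536 to 113830501, minus strand). Its FPKM was 13.1, 11.4 and 5.18 in Solvent, 31.2, 46.6 and 34.4 in DNCB, 6.92, 6.06 and 11.9 in scMSC, and 6.42, 2.60 and 4.17 in scivMSC. The lowest DNCB library was above the highest of all other libraries, and the other 3 groups overlapped with one another. Selplg rose by 1.92 on the log2 scale in DNCB against Solvent (SE 0.40, adjusted p = 0.00224). It fell by 2.18 in scMSC against DNCB (SE 0.40, adjusted p = 0.0011) and it fell by 3.09 in scivMSC against DNCB (SE 0.41, adjusted p = 1.64e-05). These calls held with TMM, at 1.79, -1.49 and -1.53.

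Cd44 encodes the hyaluronan receptor CD44, of which glycoforms on leukocytes also bind E-selectin. It lies on chromosome 2 (102811141 to 102901665, minus strand). The libraries held 5.18, 3.51 and 3.60 FPKM in Solvent, 15.4, 21.3 and 14.1 in DNCB, 6.69, 7.09 and 8.38 in scMSC, and 4.40, 3.01 and 1.15 in scivMSC. DNCB was highest, and scMSC lay between DNCB and Solvent without overlap with either. Cd44 rose by 2.05 in DNCB against Solvent (SE 0.38, adjusted p = 0.001), the largest log2 fold change of the 8 genes when Gm49368 was not added to Itgam, and TMM gave 1.89. It fell by 1.21 in scMSC against DNCB (SE 0.37, adjusted p = 0.0235), but without DNCB replicate 2 or any single scMSC library the adjusted p lay between 0.0528 and 0.109, and TMM gave -0.49 (adjusted p = 0.286). In scivMSC against DNCB it fell by 2.57 (SE 0.39, adjusted p = 4.15e-05), and by less than 2-fold with TMM (-0.92, adjusted p = 0.0366).

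Of the 8 genes, 5 rose in DNCB against Solvent (Itgam, Itgb2, Itgal, Selplg and Cd44), and in this comparison 15.6% of all tested genes rose. The median log2 fold change of the 8 was 1.42, beside 0.06 for all tested genes. No gene of the 8 fell by edgeR, where 4.87% of tested genes did, although 1 was lower at an unadjusted p under 0.05 and 1 was called lower by DESeq2, in both cases Itgb7. With TMM, 6 of 8 rose beside 16.1% of tested genes, and 1 fell beside 11.5%. The riser gained with TMM was Itgax, which was tested only because it was high in DNCB. Without Solvent replicate 2, Solvent replicate 3 or DNCB replicate 2, 3 of 8 were called.

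In scMSC against DNCB, 4 of 8 fell (Itgb2, Itgal, Selplg and Cd44), beside 24.9% of tested genes. The median of the 8 was -1.28 and that of all tested genes -0.63. With TMM, 2 of 8 fell (Itgb2 and Selplg), beside 12.3% of tested genes, and the medians were -0.57 and 0.06.

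The scivMSC libraries were lower than DNCB for 8 of 8 genes, where 62.0% of tested genes were called lower. The median of the 8 was -2.66, against -1.53 for all tested genes. TMM kept 6 calls, beside 18.9% of tested genes, with medians of -1.09 and 0.04. Cd44 and Itgb7 were the 2 genes not called under that scaling. Itgax, counted under both scalings, was tested only because it was high in DNCB.

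Between the injection routes, 6 of 8 genes were lower in scivMSC than in scMSC, beside 30.4% of tested genes, with a median of -1.38 against -0.87. The falls were 1.76 for Itgam, 1.25 for Itgal, 1.68 for Itgax, 1.74 for Itga4, 1.39 for Itgb7 and 1.36 for Cd44, with adjusted p between 0.00933 and 0.0332. TMM kept 1 call, that of Itgam (-1.13, adjusted p = 0.0441), beside 4.92% of tested genes. With Gm49368 added to Itgam that call was lost too (-0.66, adjusted p = 0.0588). A fit of these 6 libraries alone called 0 of 8 with edgeR, although 7 of 8 had an unadjusted p under 0.05, and DESeq2 on all libraries called 1. Of the 8, 2 were called when scMSC replicate 3 was left out and 3 when scivMSC replicate 3 was. The calls of Itgam, Itgb7 and Cd44 were lost without scMSC replicate 3 or scivMSC replicate 3, with adjusted p between 0.0551 and 0.0775. That of Itgax was lost without scMSC replicate 1, scMSC replicate 3 or scivMSC replicate 2 (adjusted p between 0.0595 and 0.0891), that of Itgb7 also without scMSC replicate 1 (adjusted p = 0.0629), and Itgal fell short of 2-fold without scivMSC replicate 2 (-0.92). Selplg, with a difference of -0.91 (adjusted p = 0.0781), was called without scivMSC replicate 1 (-1.29, adjusted p = 0.012).

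Against Solvent, 0 of 8 genes were called in scMSC by edgeR, where 0.326% of tested genes were called higher and 0.326% lower. At an unadjusted p under 0.05, 1 gene was higher (Cd44) and 1 lower (Itgb7), and DESeq2 called 1 higher. The difference of Cd44 was 0.84 (SE 0.37, adjusted p = 0.16), and 1.39 with TMM (adjusted p = 0.0193), the 1 call of 8 under that scaling, beside 7.29% of tested genes. All scMSC values of Cd44 were above all Solvent values.

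In scivMSC against Solvent 6 of 8 genes were called lower, beside 59.2% of tested genes, and the medians of the 8 and of all tested genes were close, at -1.48 and -1.47. Itgb2 (-0.80) and Cd44 (-0.53) were not called. TMM left 1 call, that of Itga4, beside 13.4% of tested genes, and turned Itgb2, Itgal, Selplg and Cd44 to 0.66, 0.05, 0.26 and 0.97. Under that scaling the 4 differences were all under 2-fold. DESeq2 called 1 gene, Cd44, higher (1.01). Without Solvent replicate 1, 3 of 8 genes were called with total-count scaling, since Itgam, Itgax and Selplg had adjusted p of 0.0601, 0.0511 and 0.0789. Itgam also lost its call without scivMSC replicate 3 (adjusted p = 0.0539) and Selplg without scivMSC replicate 2 (-0.90), and Itgb2 was called without scivMSC replicate 1 (-1.04).

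**Figure D3:**
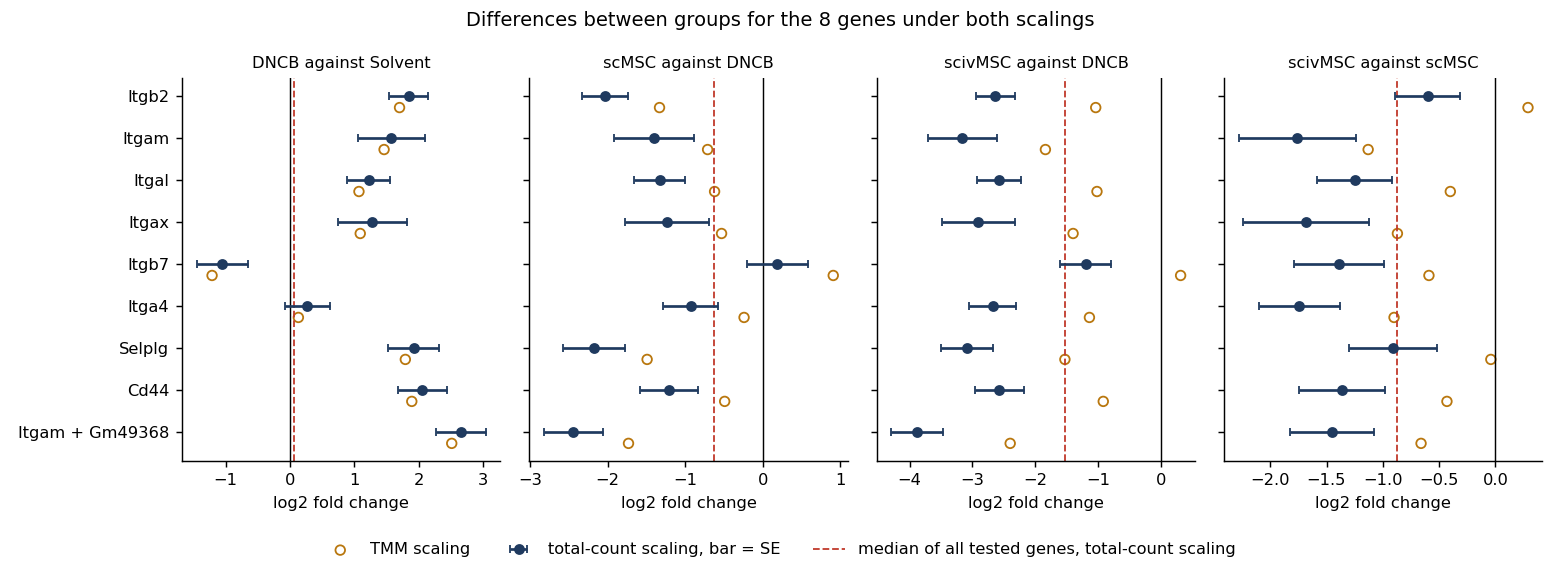
Log2 fold changes of the 8 genes, and of Itgam with Gm49368 added, in 4 comparisons. Filled points give total-count scaling with SE bars, open points TMM scaling, and the dashed line the median of all tested genes with total-count scaling. In DNCB against Solvent the 2 scalings lie close together, whereas in scivMSC against scMSC each open point lies to the right of its filled one.

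Ratios between genes of 1 library do not depend on the library scaling. For 13 such ratios of FPKM, the 4 groups were compared by an exact permutation test over all 369600 assignments of the 12 libraries, with p-values adjusted over the 13. Between any 2 groups of 3, an exact two-sided permutation test cannot give a p under 0.1.

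The ratio of Itga4 to Itgb7, chains of 1 receptor, was 0.188, 0.211 and 0.194 in Solvent, 0.504, 0.446 and 0.558 in DNCB, 0.252, 0.217 and 0.208 in scMSC, and 0.160, 0.202 and 0.192 in scivMSC. The lowest DNCB library (0.446) was above the highest of the other groups (0.252), and the groups differed (exact permutation test, adjusted p = 0.0175). Without each library in turn the adjusted p lay between 0.00971 and 0.0304. DNCB lay 1.34 above Solvent on the log2 scale, and scMSC and scivMSC lay 1.15 and 1.45 below DNCB, with no overlap and exact permutation p = 0.1 in each case, the smallest that 3 against 3 allows. Solvent overlapped with both scMSC and scivMSC.

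The ratio of Itgal to Itgb2 also differed between groups (exact permutation test, adjusted p = 0.0213). It was 0.412, 0.436 and 0.442 in Solvent, 0.308, 0.261 and 0.268 in DNCB, 0.400, 0.481 and 0.481 in scMSC, and 0.277, 0.214 and 0.348 in scivMSC. DNCB and scivMSC overlapped at the low end and Solvent and scMSC at the high end, so the share of this alpha chain per beta chain transcript was lower in DNCB and scivMSC. Without scMSC replicate 2 the adjusted p was 0.0502, and with the replicate number as a block it was 0.079 (exact permutation tests). For Itgam to Itgb2 the adjusted p was 0.0687 (exact permutation test). With Gm49368 added to Itgam it was 0.00535, and the ratio of counts had group means of 0.457 in Solvent, 0.812 in DNCB, 0.602 in scMSC and 0.308 in scivMSC.

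Ptprc encodes CD45, which all white cells carry, and served as a reference within each library. Its own FPKM was 8.0, 7.41 and 6.61 in Solvent, 8.74, 12.3 and 11.6 in DNCB, 5.86, 5.44 and 4.82 in scMSC, and 2.54, 0.744 and 1.94 in scivMSC, so it was itself lowest in scivMSC. Per Ptprc, Itgb2 stood at 2.68, 2.02 and 1.94 in Solvent, 6.21, 5.88 and 4.28 in DNCB, 2.65, 2.49 and 2.98 in scMSC, and 4.85, 8.29 and 5.10 in scivMSC (exact permutation test over the groups, adjusted p = 0.0175). Here scivMSC overlapped with DNCB and was above Solvent and scMSC, unlike the FPKM of Itgb2, which was lowest in scivMSC. With the replicate number as a block the adjusted p became 0.0602 (exact permutation test). The overlap of scivMSC with DNCB depended on the reference. Against the mean log2 level of Ptprc, Laptm5 and Coro1a, all genes of white cells, Itgb2 stood at 0.796, 0.789 and 0.777 in Solvent, 1.93, 1.82 and 1.70 in DNCB, 0.940, 1.06 and 0.974 in scMSC, and 1.36, 1.62 and 1.51 in scivMSC. There scivMSC lay wholly below DNCB and still above Solvent and scMSC (exact permutation test over the groups, adjusted p = 0.000844).

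Itgb7 per Ptprc went another way, at 3.12, 2.20 and 2.18 in Solvent, 0.985, 0.949 and 0.561 in DNCB, 1.83, 1.72 and 2.22 in scMSC, and 2.40, 2.21 and 2.03 in scivMSC (exact permutation test, adjusted p = 0.0175). The DNCB libraries alone were low, and the other 3 groups overlapped. The adjusted p became 0.0602 with the replicate number as a block (exact permutation test). With the 3-gene reference DNCB stayed the lowest group without overlap, at 0.306, 0.294 and 0.223, and Solvent became the highest without overlap, at 0.927, 0.858 and 0.875. Itga4 per Ptprc had group means from 0.404 to 0.487 and did not differ by this test (exact permutation test, adjusted p = 0.519). That value depended on the reference, since it became 0.000844 with the mean of Ptprc, Laptm5 and Coro1a (exact permutation test). There Itga4 was lowest in scivMSC without overlap, at 0.108, 0.0872 and 0.115, against 0.124 or more in the other groups. For Selplg and for Itgal per Ptprc the adjusted p was 0.059 each (exact permutation tests), and with the 3-gene reference it was 0.0153 for Selplg, now past the threshold, and 0.113 for Itgal. For Cd44 per Ptprc it was 0.144 (exact permutation tests). The low scivMSC FPKM of Itga4 and Itgb7 came with low Ptprc values in the same libraries. With the 3-gene reference, Itga4 in scivMSC was still below all other libraries, and Itgb7 in scivMSC was below all Solvent libraries.

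**Figure D4:**
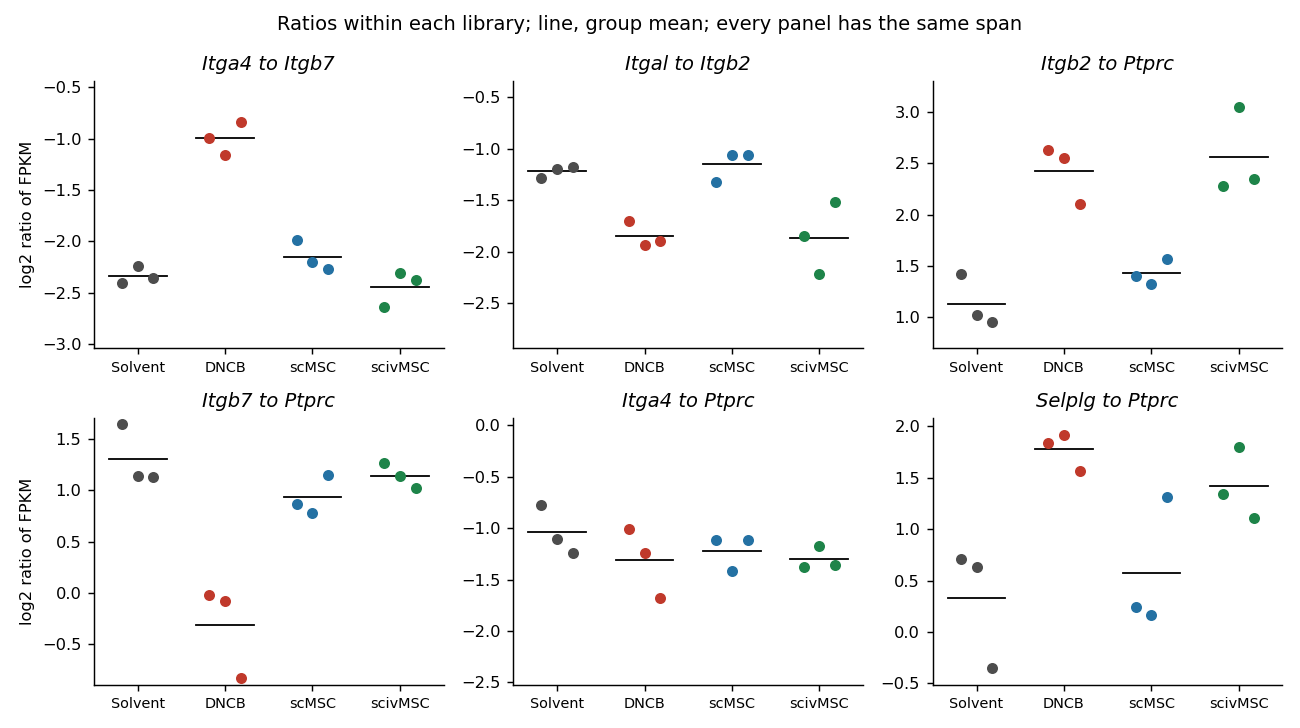
Log2 ratios of FPKM within each of the 12 libraries for 6 of the 13 gene pairs, by group, with group means as lines and the same span in each panel. Itga4 to Itgb7 was highest in DNCB, Itgb7 to Ptprc was lowest in DNCB, and Itgb2 to Ptprc was high in both DNCB and scivMSC.

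By level per gene length, the order of the 8 genes differed between groups. In Solvent the highest means were those of Itgb7 (18.6 FPKM) and Itgb2 (16.4), whose libraries overlapped, followed by Selplg (9.89), Itgal (7.01), Cd44 (4.10), Itgam (3.82), Itga4 (3.64) and Itgax (0.782). In DNCB the order was Itgb2 (58.8), Selplg (37.4), Cd44 (16.9), Itgal (16.3), Itgam (11.4), Itgb7 (8.93), Itga4 (4.39) and Itgax (1.91). Itgb7 thus had the highest mean in Solvent and ranked 6 of 8 in DNCB, and Cd44, Itgal, Itgam and Itgb7 each overlapped with their neighbour. In scMSC Itgb2 (14.5) came first without overlap, followed by Itgb7 (10.3), which overlapped with Selplg. In scivMSC Itgb2 (9.46) came first with every neighbour overlapping. Itgax was last in each of the 4 groups, and the place of Itgam is uncertain because of Gm49368.

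The summed levels of blood cell type markers also differed between groups, and the order of groups varied with the cell type. The summed FPKM of 12 neutrophil markers was from 221 to 446 in Solvent, 7040 to 11000 in DNCB, 582 to 724 in scMSC and 249 to 747 in scivMSC. Of the tested markers 11 of 11 were called higher in DNCB against Solvent, beside 15.6% of all tested genes. Elane, a defining gene of neutrophil precursors, was at 0 in all Solvent libraries. The 8 monocyte markers summed to 59.5 to 181 in Solvent, 406 to 657 in DNCB, 84.9 to 93.5 in scMSC and 80.5 to 112 in scivMSC. Of those tested, 3 of 6 were called higher in DNCB against Solvent, beside the same 15.6%. The part of these markers in the rise of Itgam, Itgb2, Itgal, Selplg and Cd44 was not tested.

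The 10 T cell markers summed to 63.3 to 110 in Solvent, 23.7 to 37.4 in DNCB, 34.5 to 47.5 in scMSC and 8.30 to 21.7 in scivMSC, and 9 of 10 were called lower in DNCB against Solvent. The 10 B cell markers summed to 51.9 to 159, 20.1 to 53.4, 17.3 to 23.1 and 4.88 to 11.1 in the same order of groups, with 8 of 9 tested called lower in DNCB. The 8 NK cell markers summed to 31.8 to 39.7, 11.8 to 18.0, 7.07 to 18.1 and 5.65 to 15.1, and 2 of 4 tested were called lower. Beside these counts, 4.87% of all tested genes were called lower in DNCB against Solvent. Itgb7 had the same order of groups as the T cell sum (Solvent, scMSC, DNCB, scivMSC), with scMSC and DNCB overlapping in both, and the part of lymphocyte markers in its values was not tested. The 8 eosinophil and basophil markers summed to at most 7.56 in any library, and Epx was at 0 in all Solvent libraries. The 8 platelet markers summed to between 373 and 930, with 4 of 8 called higher in DNCB against Solvent, beside 15.6% of all tested genes. The 7 of 8 erythroid markers in the table summed to between 266000 and 360000, and the median log2 difference of the 6 tested in scivMSC against DNCB was 0.69 with total-count scaling and 2.38 with TMM.

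The genes with the profile nearest to each member over the 12 libraries were found by the root mean square difference of centred log2(FPKM + 1), among 5017 candidates. For Itgb2 they were Ttc7, Sbno2 and Atg3, at 0.127 each. For Itgal they were Cyth4 (0.126), Lrch4 (0.134) and Ier2 (0.136), and for Itgam, Adgre5 (0.275), Midn (0.289) and Csf2ra (0.295), with the Itgam row read alone. Those of Itgb7 were Lbh and Lck (0.164 each) and Cd48 (0.172), of which Lck is also on the T cell list. Itga4 was nearest to Irf1 (0.107), Lypla2 (0.112) and Eif4ebp2 (0.113). Itgax was nearest to Rap1gap2 (0.108), Itga5 (0.11) and Mob3a (0.112), at levels so low that log2(FPKM + 1) compresses the differences. Selplg had Lcp1 (0.223), Smpdl3a (0.238) and Lgals3 (0.242), and Cd44 had Ndst1 and Hgsnat (0.297 each) and Gad1-ps (0.318). The root mean square of the members' own profiles ran from 0.461 for Itgax to 1.128 for Selplg. Among the members themselves the nearest pairs were Itgb2 with Selplg (0.287) and Itgam with Itgal (0.29).

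Another 63 genes of adhesion were followed on 4 lists, of which 41 passed the filter. Of the 41, 2 reached 1 FPKM in DNCB libraries only and 1 in Solvent libraries only, so their place among the tested genes rests on the group in which they were high. In DNCB against Solvent 9 rose and 1 fell, with a median of 0.46, beside 15.6% of all tested genes called higher and 4.87% lower. In scMSC against DNCB 11 of 41 fell, with a median of -0.59, beside 24.9% of tested genes. In scivMSC against DNCB 25 fell and 1 rose, with a median of -1.41, beside 62.0% of tested genes called lower, so the falls on these lists were near the share of all genes in both comparisons. TMM changed these to 7 up and 4 down, 6 up and 2 down, and 13 up and 9 down, so the balance of higher and lower calls on these lists depended on the scaling. The 8 members had lower medians than these 41 genes in both comparisons with DNCB and a higher one in DNCB against Solvent. The members and lists were chosen with earlier results of these data known, and Itgax was tested only through its DNCB libraries. This contrast of medians therefore says little about the members in particular.

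Of the genes for selectins and for the synthesis of their ligands, 3 of 11 tested rose in DNCB against Solvent and 9 fell in scivMSC against DNCB, beside 15.6% and 62.0% of all tested genes. St3gal6 was among the 3 and among the 9, and it was tested only because its DNCB libraries reached 1 FPKM. With TMM 2 rose and 1 fell in the first comparison, and 2 rose and 3 fell in the second. Gcnt1, which builds the branched core of the sugar chains on PSGL-1, had 1.11, 0.779 and 0.576 FPKM in Solvent, 3.72, 4.50 and 2.84 in DNCB, 1.23, 0.932 and 1.40 in scMSC, and 0.575, 0.250 and 0.589 in scivMSC. St3gal4, a sialyltransferase of the same chains, had 1.83, 1.42 and 1.17 in Solvent, 5.20, 8.73 and 6.48 in DNCB, 2.36, 1.41 and 1.89 in scMSC, and 0.544, 0.328 and 0.777 in scivMSC. In both genes the DNCB libraries stood above all others, as they did for Selplg. Gcnt1 and St3gal4 were named because their changes in DNCB against Solvent were the largest on this list. Their separation therefore follows in part from that choice, and the share of all tested genes that separate so was not computed. The log2 fold changes in DNCB against Solvent were 2.16 for Gcnt1 (SE 0.40, adjusted p = 0.000904) and 2.20 for St3gal4 (SE 0.39, adjusted p = 0.000707). Both fell in scMSC against DNCB, by 1.64 and 1.86, though with TMM the fall of Gcnt1 (-0.94) was under 2-fold.

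Of 15 tested genes of integrin activation, 3 rose and 1 fell in DNCB against Solvent, where 15.6% of all tested genes were called higher and 4.87% lower. These counts were near the shares of all genes. In scivMSC against DNCB 11 fell, beside 62.0% of all tested genes called lower. With TMM 3 rose and 3 fell in the latter comparison, with a median of 0.01. The genes named here were those with the largest changes on this list in DNCB against Solvent or in scivMSC against DNCB. In DNCB against Solvent Vasp, an actin regulator, rose by 1.28 (SE 0.33, adjusted p = 0.0107). Rassf5 (RAPL), which links Rap1 to LFA-1, rose by 1.19 (SE 0.37, adjusted p = 0.0317). Skap1, an adaptor of T cells, fell by 1.71 (SE 0.38, adjusted p = 0.00404), from 3.05, 1.80 and 1.59 FPKM to 0.919, 0.636 and 0.395. It reached the filter of 1 FPKM through its Solvent libraries alone, so it was tested only because it was high there. Apbb1ip (RIAM), which brings talin to integrins, had a difference of 0.91 (adjusted p = 0.0879) and fell by 3.07 in scivMSC against DNCB (-1.50 with TMM).

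Of the 6 other integrin subunits tested, Itga5 and Itgb3 rose in DNCB against Solvent, where 15.6% of all tested genes were called higher. Itga5, the fibronectin receptor alpha chain, rose by 1.87 (SE 0.47, adjusted p = 0.00843), and it was tested only because its DNCB libraries reached 1 FPKM (1.73, 2.05 and 1.04, and at most 0.609 elsewhere). It was also called lower in scivMSC than in DNCB (adjusted p = 4.63e-06). Its scivMSC libraries held 15, 4 and 18 counts, of which 1 is below and the others are just above the floor of 12 counts, so no size is given for that fall. Itgb3, a beta chain of platelets, rose by 1.74 (SE 0.59, adjusted p = 0.0437), a call lost with TMM (adjusted p = 0.0746). Of 9 tested genes of integrin ligands and transmigration, 1 rose and 0 fell in DNCB against Solvent, beside 15.6% and 4.87% of all tested genes. With TMM 1 rose and 2 fell. In scivMSC against DNCB 4 fell and 1 rose, beside 62.0% of all tested genes called lower. The genes named from this list had its largest changes in these comparisons. Sirpa, a myeloid receptor for CD47, rose by 2.33 in DNCB against Solvent (SE 0.49, adjusted p = 0.00257). It fell by 1.86 and 2.80 in scMSC and scivMSC against DNCB. Icam2, a ligand of LFA-1, had a difference of -1.53 in DNCB against Solvent (SE 0.55, adjusted p = 0.0603), and with TMM it fell by 1.67 (adjusted p = 0.00106). Adam17, the protease that sheds L-selectin, had a difference of 0.65 (adjusted p = 0.336) and fell by 3.03 in scivMSC against DNCB (-1.54 with TMM).

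**Figure D5:**
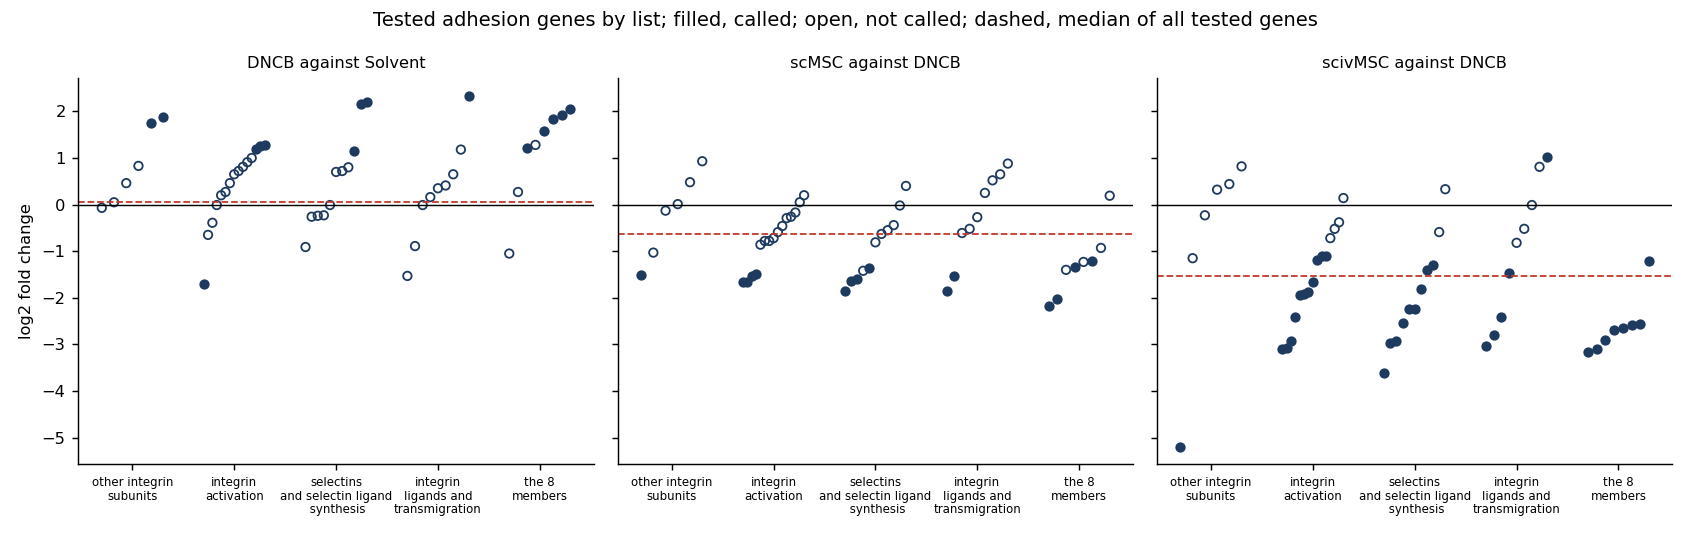
Log2 fold changes of the 41 tested genes of 4 adhesion lists and of the 8 members in 3 comparisons, with filled points for called genes, open points for others and a dashed line at the median of all tested genes. In DNCB against Solvent 9 listed genes and 5 members rose, beside 15.6% of all tested genes. In scivMSC against DNCB 25 listed genes and 8 members fell, beside 62.0%. Itgax, among these 8, was tested only because it was high in DNCB.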

How the data were processed

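Blood RNA from 12 mice was measured in 1 library each, and groups and replicate numbers were taken from the sample titles. The authors deposited 1 table of 25247 genes with an estimated count and an FPKM value per library. The submitters' processing notes name Bowtie 0.12.2, HISAT2 2.0, StringTie 1.3.0 and the build mm8, although the file's coordinates of the 8 genes lie within 2027 bases of RefSeq genes on GRCm38.p6. Coordinates are printed as the file gives them. The annotation and the strand setting are not given in the sources used here.

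The deposited estimated counts are whole numbers. Of cells with values from 1 to 12, 29.0% hold 4, so a fragment may be worth about 4 counts, and the floor was set at 12 counts (3 fragments). The deposited FPKM values follow the counts, divided by gene length and library total, haemoglobin included. Total counts limit the precision of low genes, and p-values measure the spread between 3 mice per group. No pair of replicates agreed within sampling noise.

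Genes with at least 1 FPKM in at least 3 libraries (5527) were tested with edgeR 4.0.16 (R 4.3.3), quasi-likelihood, on the estimated counts with the total count as library size, all 12 libraries and 4 group means, with Benjamini-Hochberg adjustment over all tested genes. TMM, haemoglobin left out of totals, DESeq2 1.42.0, limma 3.58.1 on log2(FPKM + 1) or log2(FPKM + 0.1), other filters, fewer libraries and a replicate block were alternatives. Adding the counts of Gm49368 to Itgam was chosen after seeing the data. The pipeline was tested on simulated data. Ratios were compared by an exact permutation test of the F statistic.

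Named were the 8 members, the 2 tested genes of each adhesion list with the largest absolute change in DNCB against Solvent and in scivMSC against DNCB, and the 3 genes with the nearest profile, predicted genes left out. The members and lists were chosen with earlier results of these data known. Skin libraries of the study were not analysed here.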

Additional observations from a re-analysis of the deposited data

How the results depend on the processing

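The rise of Itgb2, Selplg and Cd44 in DNCB against Solvent and the fall of Itgb2 and Selplg in both treated groups against DNCB kept their direction and their call under each alternative run, as did the fall of Itgam, Itgal, Itgax and Itga4 in scivMSC against DNCB under each alternative that tested them. The members differing over the 4 groups stayed 8 of 8, or 6 at a mean FPKM of at least 5, where Itga4 and Itgax were not tested, and the difference in the ratio of Itga4 to Itgb7 also held. Itgax passed the filter only through its DNCB libraries. For the results below that changed, the causes were not tested. Of the log2 fold changes refitted without 1 library, 530 kept direction and call, 32 lost a call, 8 gained one and 6 reversed, and under other settings these numbers were 353, 41, 17 and 21. With 3 mice per group and few fragments outside haemoglobin, small differences of Itgax and of other low genes were not detectable.

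Members called went from 4 to 2 in scMSC against DNCB with TMM, with haemoglobin left out of totals and with DESeq2. In scivMSC against scMSC they went from 6 to 1 with TMM and DESeq2, and to 0 with only the 6 libraries or with Gm49368 added under TMM. In scMSC against Solvent they went from 0 to 1 with TMM, with haemoglobin left out, with DESeq2 and with Gm49368 added under TMM, and in scivMSC against Solvent from 6, all lower, to 1 with TMM (lower), with DESeq2 (higher) and with Gm49368 added under TMM (lower). Without 1 library the counts ran from 3 to 7 in DNCB against Solvent, 3 to 6 in scMSC against DNCB, 7 to 8 in scivMSC against DNCB, 2 to 7 in scivMSC against scMSC and 3 to 7 in scivMSC against Solvent.

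Adhesion list genes called in DNCB against Solvent went from 10 to 6 with limma on log2(FPKM + 1) and to 2 at a mean FPKM of at least 5, a filter that leaves fewer genes, and without 1 library from 6 to 13. That filter also gave 3 in place of 11 in scMSC against DNCB (6 to 13 without 1 library), 5 in place of 26 in scivMSC against DNCB and 6 in place of 23 in scivMSC against Solvent. In scivMSC against scMSC 17, all lower, became 7 with TMM (6 higher and 1 lower, also with Gm49368 added), 8 with DESeq2 (7 higher and 1 lower), 5 lower with limma, 4 lower with the filter and 0 with only the 6 libraries, and 5 to 23 without 1 library. In scMSC against Solvent 0 became 8, all higher, with TMM (also with Gm49368 added) and DESeq2, 5 with haemoglobin left out (4 higher) or with only the 6 libraries (1 higher), and 0 to 4 without 1 library.

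Directions reversed mostly in comparisons with Solvent. TMM and DESeq2 gave 0.29 and 0.32 for Itgb2 in scivMSC against scMSC, and 0.31 and 0.30 for Itgb7 in scivMSC against DNCB. In scMSC against Solvent they gave 0.37 and 0.36 for Itgb2, 0.45 and 0.44 for Itgal, and 0.30 and 0.29 for Selplg, and leaving haemoglobin out gave 0.04 for Itgb2 and 0.12 for Itgal. Without 1 library these values ran from -0.0009 to 0.38 for Itgam, -0.34 to 0.05 for Itgb2, -0.24 to 0.09 for Itgal and -0.06 to 0.21 for Itgax. In scivMSC against Solvent TMM and DESeq2 gave 0.66 and 0.68 for Itgb2, 0.05 and 0.07 for Itgal, 0.26 and 0.28 for Selplg, and 0.97 and 1.01 for Cd44, and TMM with Gm49368 added gave 0.12 for Itgam.

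For ratios, the adjusted p (exact permutation test) with the mean of Ptprc, Laptm5 and Coro1a as reference was 0.000844 for Itga4 and 0.0153 for Selplg. With Gm49368 added it was 0.00535 for Itgam to Itgb2, 0.00957 for Itgal to Itgam and 0.00535 for Itgam to Ptprc. For Itgam alone, as planned, it was 0.0687, 0.196 and 0.217 in the same order (exact permutation tests), each over 0.05. For Itgax it was 0.059 to Itgb2 and 0.484 to Ptprc (exact permutation tests). Without 1 library it ran from 0.00971 to 0.0502 for Itgal to Itgb2, 0.0191 to 0.277 for Itgam to Itgb2, 0.00971 to 0.165 for Itgax to Itgb2, 0.019 to 0.496 for Itgal to Itgam, 0.0327 to 0.155 for Itgal to Ptprc, 0.0181 to 0.115 for Selplg to Ptprc and 0.00971 to 0.339 for Cd44 to Ptprc.

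Whether the replicate numbers pair the samples was not settled. Of 18 correlations between same-numbered libraries, from -0.2 to 0.17, 2 were over 0.1. In 20 of 36 comparisons, however, a library matched best with its own number, of 3 to choose from. With the replicate number as a block, 5, 4, 8, 6, 0 and 6 members were called in the 6 comparisons, as without it, while the adjusted p (exact permutation test) became 0.079 for Itgal to Itgb2, 0.0602 for Itgb2 to Ptprc, 0.0602 for Itgb7 to Ptprc and 0.0226 for Itga4 to Itgb7.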
